A study of Mus musculus with 12 samples.

Results

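The variable segments of the T-cell receptor alpha chain (gene symbols beginning with Trav) were followed in mouse thymocytes by RNA-seq and by ribosome footprinting. The count tables of both assays held 128 Trav rows among 55335 gene rows. The 72 rows with at least 10 reads summed over the 12 libraries are the members described here, chosen by name and read number and not by any difference between genotypes. Of the other rows, 47 had 0 reads and 9 had fewer than 10. Just outside the limit lay Trav4d-2, Trav9d-4 and Trav10d with 8 reads each, and just inside it Trav13d-1 with 10 and Trav13-3 with 16.

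Thymi came from mice aged 6 weeks. By their labels 3 were wild type (WT) and 3 lacked miR-181a/b-1, a pair of microRNA genes (knockout, KO). Cells of both genotypes were passed through a 70 µm strainer and kept in cycloheximide at 0.1 mg/ml, a drug that halts ribosomes on the mRNA, so every group carries that treatment. Each genotype gave 3 RNA-seq libraries and 3 footprint libraries, the latter made of mRNA fragments protected by ribosomes. The study's title asks where in transcripts miR-181 acts in the thymus. The labels used here name no strain, no sex and no sort of a thymocyte subset, and do not say which libraries of the 2 assays came from 1 mouse.

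An alpha chain gene is assembled in double-positive thymocytes, when the RAG recombinase joins a Trav segment to a joining segment upstream of the constant gene Trac. The segments lie in a row along the locus. Proximal segments, near the joining segments, are used in first rearrangements, and later rounds of rearrangement on the same chromosome reach more distal segments. A large part of the mouse array was duplicated, so that many segments have near-identical copies marked with the letters d and n in their symbols, and names that contain dv mark segments that the delta chain also uses. Invariant natural killer T (iNKT) cells carry a fixed alpha chain made with Trav11, and mucosal-associated invariant T cells one made with Trav1. The microRNA miR-181a is known to tune T-cell receptor signalling, and mice without it are known for a shortage of iNKT cells.

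Between 4479182 and 8180286 reads per RNA-seq library and between 4069968 and 17859770 per footprint library, fewest in KO replicate 3, lay in genes. The targeted row Mir181a-1 had 148 ± 16.8 CPM, the reads of a row scaled to library size, in WT footprints and 0.828 ± 0.317 in KO footprints, but 2.81 ± 1.62 and 3.27 ± 1.59 CPM in RNA-seq (SD, n = 3 each). It therefore checked the labels of the footprint libraries, while the RNA-seq libraries are named by their labels alone. Markers of double-positive thymocytes were high in every library, with the 8 genes summing to 11300 to 13500 CPM in RNA-seq and 18300 to 19700 CPM in footprints. WT and KO libraries with the same replicate number deviated from their group means in opposite directions, with Pearson's r of -0.99 to -0.97 over 9639 genes in RNA-seq and -0.99 over 8613 genes in footprints for each of 3 pairs. Over the 72 members the same pairs gave r of -0.80 to -0.51 and -0.94 to -0.88. The authors call the counts adjusted without saying how, so the spread within groups may not be the spread between mice, and the origin of the mirrored deviations was not tested. Calls that ended when the replicate number was fitted as a block are given below with that value.

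Reads fell unevenly on the copies. Of 55 rows without a copy letter 47 were members, against 12 of 39 d rows and 13 of 34 n rows, and the members without a letter held 82.3 ± 0.218% of all member reads in WT RNA-seq and 87.6 ± 0.804% in WT footprints (SD, n = 3). There were 40 segment labels present as more than 1 copy, with 111 rows of which 45 had 0 reads. The 17 labels with a single copy had 2 rows at 0. Rows below the limit lay side by side: from Trav14d-1 to Trav13d-3, 19 neighbouring rows held 10 reads in all, and from Trav14n-1 to Trav3n-3, 14 rows held 0. The partners of these rows without a letter included rows with many reads, such as Trav14-1 with 1467 reads against 0 in each of Trav14d-1 and Trav14n-1. In the tables, reads with several alignments were set apart from the genes and made up 13.1% to 20.5% of all counted reads in RNA-seq libraries and 17.7% to 18.6% in footprints. How many of them came from Trav copies was not tested, so a row at 0 does not show that its segment was silent, and a member with copies may carry reads of its partners. Of 16 rows that RefSeq types as pseudogenes, 3 were members, namely Trav12-4, Trav20 and Trav23.

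**Figure D1:**
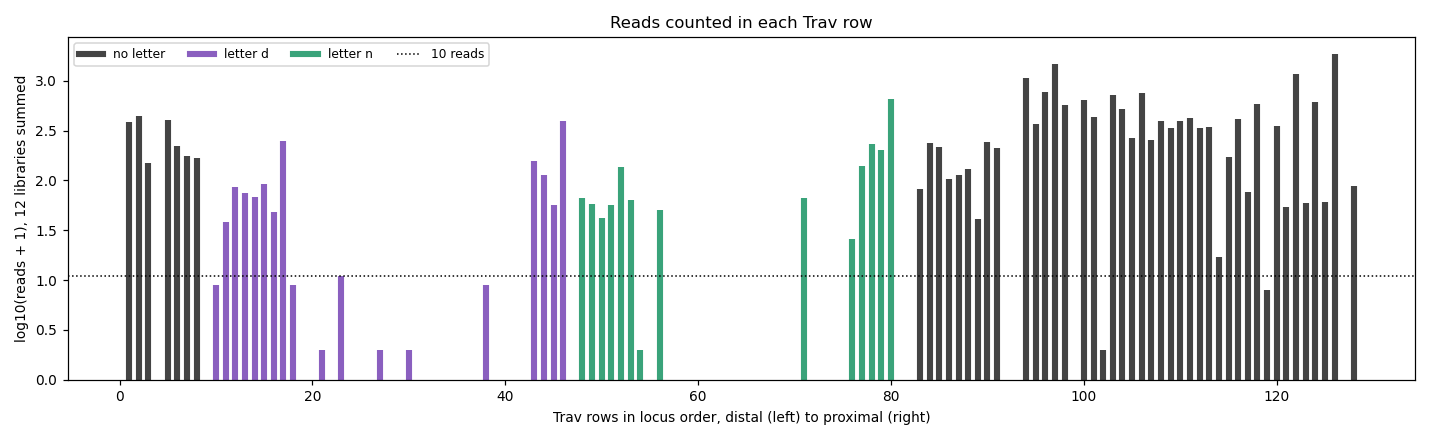
Reads of each of the 128 Trav rows, summed over 12 libraries and plotted as log10(reads + 1) in locus order from distal (left) to proximal (right), coloured by copy letter; the dotted line marks 10 reads. The long gaps are the runs of 19 d rows and 14 n rows with 10 and 0 reads.

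Summed over members, Trav reads took a small part of each library. RNA-seq libraries labelled WT had 133, 131 and 118 CPM in all members together and those labelled KO had 134, 127 and 145 CPM. Footprint libraries had 227, 219 and 213 CPM in WT and 213, 219 and 237 CPM in KO. The genotypes overlapped in both assays, with 127 ± 8.22 against 135 ± 9.29 CPM in RNA-seq and 220 ± 6.61 against 223 ± 12.6 CPM in footprints (SD, n = 3 each). The members drew 535 to 1163 reads per RNA-seq library and 965 to 3958 per footprint library, so the median member had 4 to 9 reads per RNA-seq library and 8 to 32 per footprint library. Because these are mixed thymocytes, fewer cells using a segment and less RNA per cell cannot be told apart.

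Values per row are not corrected for segment length, so their order is one of reads drawn and not of transcript abundance. In RNA-seq the 6 rows that drew most reads were Trav14-1, Trav14n-3, Trav14-2, Trav7-5, Trav6-7-dv9 and Trav13-1, all from the duplicated middle of the array. Trav14-1 had 18.4, 16 and 12.9 CPM in libraries labelled WT and 17.1, 19.7 and 23 CPM in those labelled KO, which overlapped. The next 5 had means of 5.56 to 7.55 CPM in WT and of 5.99 to 8.29 CPM in KO. Their genotypes overlapped in each case. Trav14n-3 and Trav14-2 differed by less than their SDs in libraries labelled WT (7.55 ± 1.61 and 7.49 ± 1.49 CPM, n = 3), and so did Trav6-7-dv9 and Trav13-1 (5.56 ± 0.856 and 5.9 ± 1.18 CPM, n = 3).

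In footprints the 6 rows that drew most reads were Trav21-dv12, Trav17, Trav7-5, Trav14-1, Trav12-2 and Trav13-1. The first 2 are proximal segments. Trav21-dv12, which the delta chain can use as well, had 21.1, 23.2 and 26.3 CPM in WT and 23.5, 21.4 and 18.2 CPM in KO, which overlapped. Trav17 had 17, 13.8 and 14.1 CPM in WT and 9.74, 12.4 and 12.5 CPM in KO. All 3 KO libraries lay below all 3 WT libraries for Trav17, but the difference did not pass the test (log2 fold change -0.39, SE 0.13, edgeR FDR 0.0919). The 8 members with dv names, which both chains can use, held 18.3 ± 1.36% of member reads in WT and 19.1 ± 1.43% in KO footprints, and 17.6 ± 0.675% and 16.2 ± 0.646% in RNA-seq libraries labelled WT and KO (SD, n = 3).

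**Figure D2:**
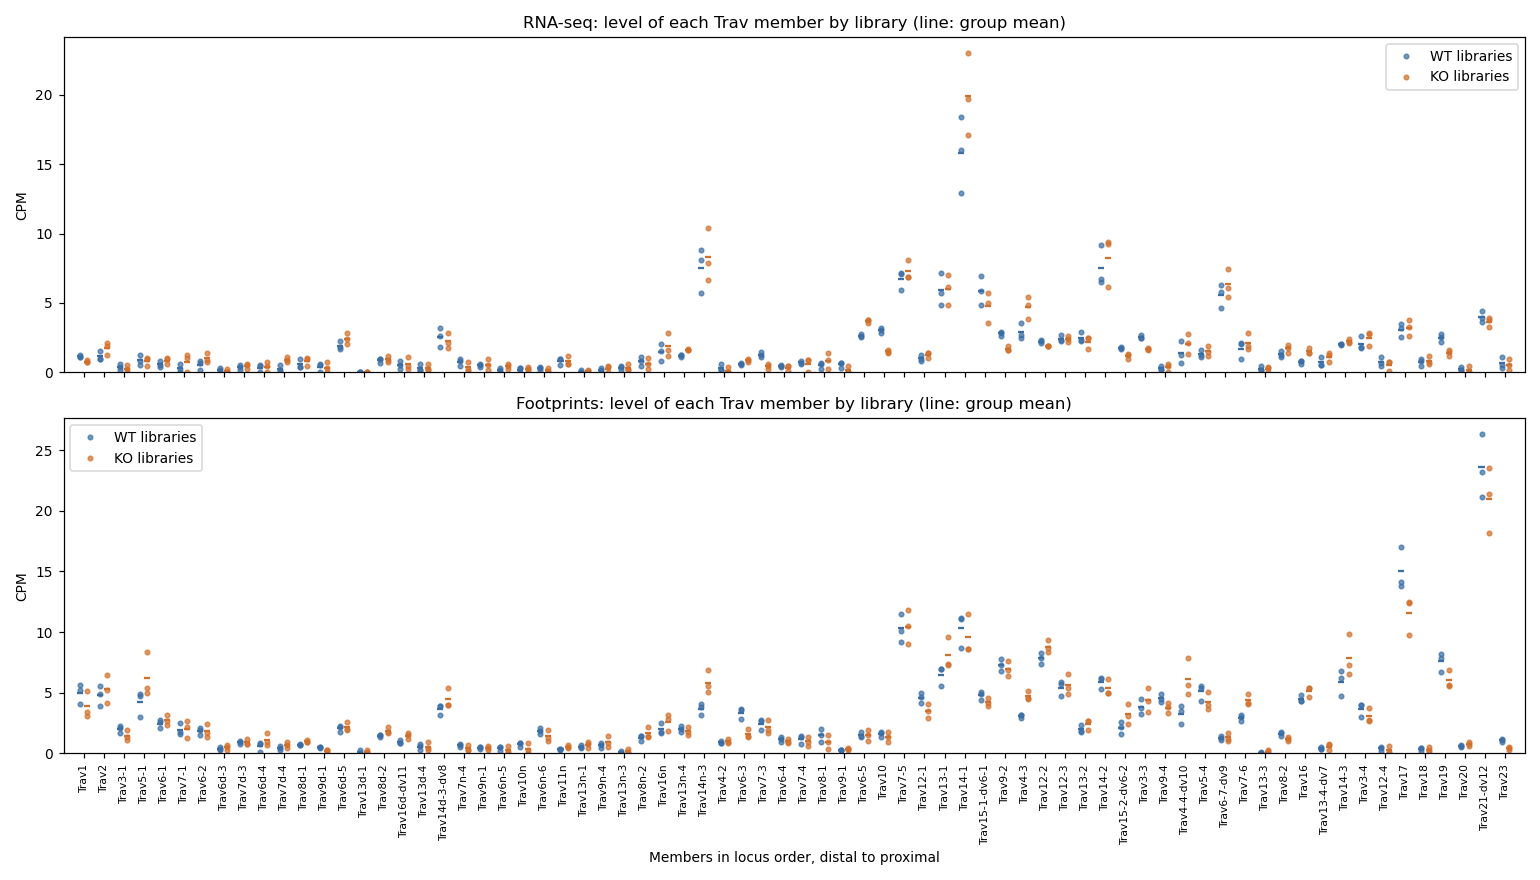
CPM of each of the 72 members in each library, in locus order, RNA-seq above and footprints below; points are libraries coloured by genotype and lines are group means. Trav14-1 stands highest in RNA-seq, and Trav21-dv12 and Trav17 stand highest in footprints.

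Footprints were then set against RNA-seq within the WT libraries, as a log2 ratio relative to all genes. The length of a row enters both sides of the ratio, but whether it cancels was not tested. Of 44 members tested, 14 passed the low-count filter through their footprints alone, so that a high ratio was bound to follow, and they are left out of the counts given here. Among the 30 members that passed it in each assay alone, a subset taken after seeing the data, 22 had a positive ratio and the median was 0.87, against 0.09 over the 11813 genes filtered in the same way. The edgeR quasi-likelihood test called 18 of the 30 higher and 3 lower. Over those genes 44.5% were called higher and 38.7% lower, so that a call alone is no mark of a Trav row. The 30 members differed widely among themselves, from -1.81 to 2.83.

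Trav9-4, which passed the filter through its footprints alone, had a ratio of 4.21, given as a description. Its RNA-seq values in WT were 0.477, 0.139 and 0.275 CPM, from 6 reads, and its footprints were 4.92, 4.48 and 4.26 CPM, from 211 reads. Trav7-1 at 3.03 and Trav6n-6 at 2.95 passed in the same way, each also with 6 RNA-seq reads in WT. Among rows that passed in each assay, Trav21-dv12 stood at 2.83 (SE 0.16) from 83 RNA-seq reads, and Trav17 at 2.56 (SE 0.19) from 64. These last ratios rest on more reads and have the smaller errors.

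At the other end stood Trav6-7-dv9, with 4.61, 6.28 and 5.78 CPM in WT RNA-seq and 1.26, 1.45 and 1.14 CPM in WT footprints. Its ratio was -1.81 (SE 0.23, edgeR FDR 1.37e-06), and no footprint library reached the lowest RNA-seq library. Trav14n-3 stood at -0.74 (SE 0.19, edgeR FDR 0.00192) and Trav10 at -0.66 (SE 0.25, edgeR FDR 0.0124). The call of Trav10 ended without footprint WT replicate 1 (edgeR FDR 0.0668) and in DESeq2 (adjusted p 0.0866). In the KO libraries the ratio of Trav10 was 0.22 (edgeR FDR 0.544), the opposite sign. Members of 1 family did not share a ratio: the 5 tested Trav14 rows ran from -0.74 to 1.85 with a median of -0.06, while Trav12-3 stood at 1.44 and Trav12-2 at 2.09. By position, the distal Trav2 stood at 2.30 and the proximal Trav19, Trav17 and Trav21-dv12 at 1.87, 2.56 and 2.83, while the highest of the members numbered 3 to 16 among the 30 was Trav5-4 at 2.23. The distal and proximal rows named here have no d or n copies, while Trav6-7-dv9, Trav14n-3, Trav10 and Trav5-4 have copy partners. Position and copy number therefore cannot be told apart in this contrast. No test of position was made, and how reads with several alignments enter the ratio was not tested.

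**Figure D3:**
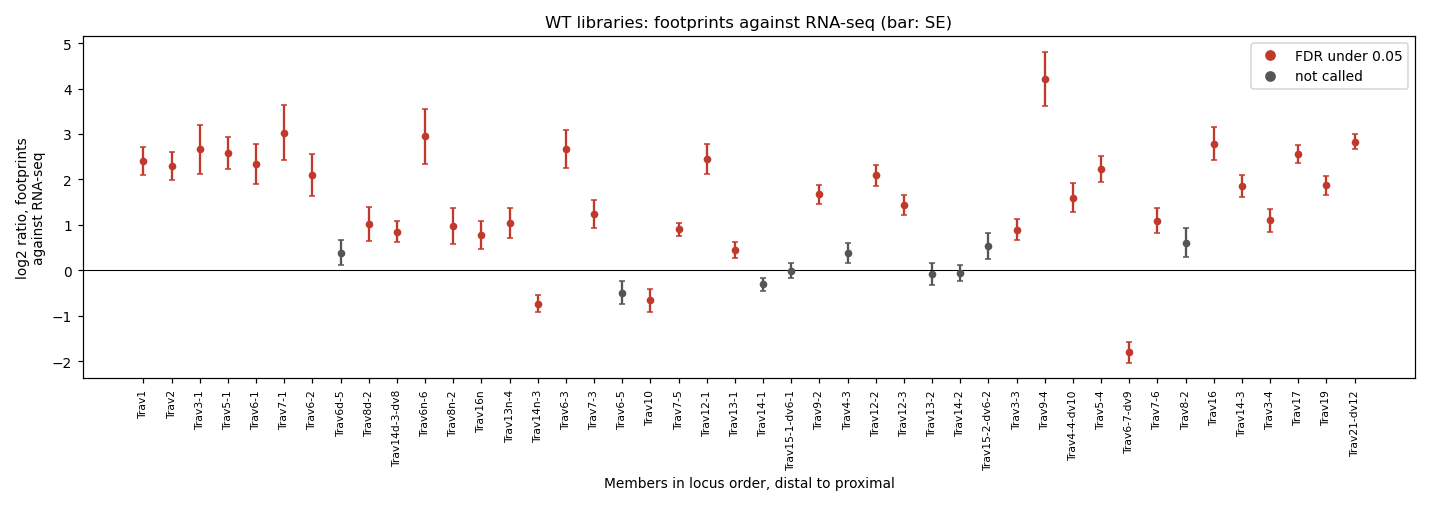
Log2 ratio of footprints to RNA-seq in WT libraries for the 44 tested members in locus order, with SE bars; red points passed an edgeR FDR of 0.05. Trav9-4 is highest at 4.21, from 6 WT RNA-seq reads, and Trav6-7-dv9 lowest at -1.81; 14 of the points passed the low-count filter through footprints alone.

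KO was next compared with WT in RNA-seq, where 30 of the 72 members had enough reads to be tested. Trav10 (ENSMUSG00000096551.2) was the 1 member called, and it was lower in the libraries labelled KO. It had 2.86, 3.07 and 3.17 CPM in those labelled WT and 1.61, 1.42 and 1.5 CPM in those labelled KO. Every KO value lay below every WT value. The log2 fold change was -0.99 (SE 0.32, edgeR FDR 0.0318), from 63 and 29 reads, and over all 13652 genes 6.91% were called, so 1 of 30 members is not above that share. The call ended with the replicate block (edgeR FDR 0.387), in DESeq2 (adjusted p 0.383) and when any 1 of the 6 libraries was left out (edgeR FDR 0.0724 to 0.125). Those fits called 0.806%, 3.9% and 1.55% to 2.32% of all genes, in that order. In footprints Trav10 had 1.32, 1.68 and 1.80 CPM in WT and 1.76, 1.36 and 0.982 CPM in KO, which overlapped, with a fold change of -0.11 on the log2 scale (SE 0.28, edgeR FDR 0.818).

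The other tested members had log2 fold changes up to 0.64 in RNA-seq, and 22 of the 30 lay within 0.5 of 0. There were 19 positive and 11 negative values with a median of 0.14, against a median of -0.000534 over all genes tested. The genotypes did not overlap for 10 members, 4 higher and 6 lower in libraries labelled KO, and for 30.9% of all genes. The positive end was held by Trav4-3 with 2.7, 2.51 and 3.58 CPM against 4.83, 5.45 and 3.87 CPM (log2 fold change 0.64, SE 0.24, edgeR FDR 0.114). Trav19, a proximal segment, had 2.54, 2.79 and 2.20 CPM against 1.46, 1.18 and 1.62 CPM (log2 fold change -0.77, SE 0.34, edgeR FDR 0.125). Neither passed the test, although the genotypes did not overlap in either. Trav2, the most distal member tested here, had 0.954, 0.976 and 1.52 CPM against 1.90, 2.13 and 1.25 CPM and overlapped (log2 fold change 0.53, SE 0.39, edgeR FDR 0.404).

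In footprints 55 members were tested and 5 were called by edgeR, against 17.6% of all 13509 genes. Trav4-3, Trav7-6 and Trav14n-3 were higher in KO, and Trav6-3 and Trav23 were lower, against 9.25% higher and 8.34% lower over all genes. None of the 5 calls held with the replicate block, where edgeR called 3.02% of all genes and 0 members. In that fit 5 of the 55 members had an unadjusted p under 0.05, against 16.2% of all genes. DESeq2 called 9.14% of all genes and 1 member, none of the 5 but Trav4-4-dv10, named here after its values were seen. Trav23 had no DESeq2 adjusted p. With any 1 library left out, 1 or 2 members were called, and the share over all genes fell from 17.6% to between 7.75% and 10.9%.

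Trav4-3 (ENSMUSG00000093966.2) had 3.21, 3.19 and 2.94 CPM in WT footprints and 4.45, 4.55 and 5.16 CPM in KO. All KO libraries were above all WT libraries, as in RNA-seq by label. The log2 fold change was 0.56 (SE 0.17, edgeR FDR 0.0161, with the replicate block 0.297), and the call ended without KO replicate 2 or without WT replicate 2 (edgeR FDR 0.0408 to 0.0767 over the 6 omissions). Its neighbour in the family, Trav4-4-dv10, had 3.89, 3.52 and 2.46 CPM in WT and 4.92, 5.65 and 7.86 CPM in KO (log2 fold change 0.76, SE 0.21, edgeR FDR 0.0517, DESeq2 adjusted p 0.0429, with the replicate block 0.187). These values did not overlap either.

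Trav7-6 (ENSMUSG00000096138.5) had 3.03, 3.13 and 2.65 CPM in WT and 4.17, 4.09 and 4.91 CPM in KO footprints. The KO libraries were all higher, with a fold change of 0.52 on the log2 scale (SE 0.18, edgeR FDR 0.0338, with the replicate block 0.356). Trav14n-3 (ENSMUSG00000076824.3) had 4.06, 3.80 and 3.13 CPM in WT and 5.10, 5.52 and 6.87 CPM in KO footprints. Again no value overlapped, and the log2 fold change was 0.59 (SE 0.16, edgeR FDR 0.0354, with the replicate block 0.254). Both calls ended when any 1 of the 6 libraries was left out, with edgeR FDRs of 0.0655 to 0.0939 for Trav7-6 and 0.0571 to 0.114 for Trav14n-3. The partners of Trav14n-3 did not pass the test: Trav14-3 had a log2 fold change of 0.30 (edgeR FDR 0.31) and Trav14d-3-dv8 of 0.19 (edgeR FDR 0.523).

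Trav6-3 (ENSMUSG00000094220.5) had 3.66, 2.85 and 3.60 CPM in WT and 1.39, 2.01 and 1.47 CPM in KO footprints. The KO libraries were all lower, with a fold change of -0.96 on the log2 scale (SE 0.23, edgeR FDR 0.0201, with the replicate block 0.168), and the call held only without KO replicate 2 or without WT replicate 2 (edgeR FDR 0.0279 to 0.0724 over the 6 omissions). Its RNA-seq values went the other way by label, from 0.636, 0.558 and 0.689 CPM to 0.878, 0.947 and 0.748 CPM, on 13 and 16 reads and without a test. Trav23 (ENSMUSG00000106289.1), the most proximal row and typed as a pseudogene by RefSeq, had 0.973, 1.12 and 1.23 CPM in WT and 0.557, 0.455 and 0.245 CPM in KO footprints. These did not overlap, on 50 and 14 reads, and gave a fold change of -1.22 on the log2 scale (SE 0.44, edgeR FDR 0.0224, with the replicate block 0.286). The call held only without WT replicate 1 (edgeR FDR 0.0477 to 0.115 over the 6 omissions).

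Over all 55 members tested in footprints, 25 fold changes were positive and 30 negative, with a median of -0.10 against -0.00904 over all genes. Of these, 41 lay within 0.5 of 0. The genotypes did not overlap for 17 members, 11 higher and 6 lower in KO, and for 38.1% of all genes. Among the 30 members tested in both assays, Pearson's r between the 2 sets of log2 fold changes was 0.15 and Spearman's rho 0.06, with 9 positive in both and 5 negative in both. Spearman's rho with position along the locus was -0.18 in RNA-seq (n = 30 members) and -0.10 in footprints (n = 55 members). These describe members that share libraries and are given without a test.

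**Figure D4:**
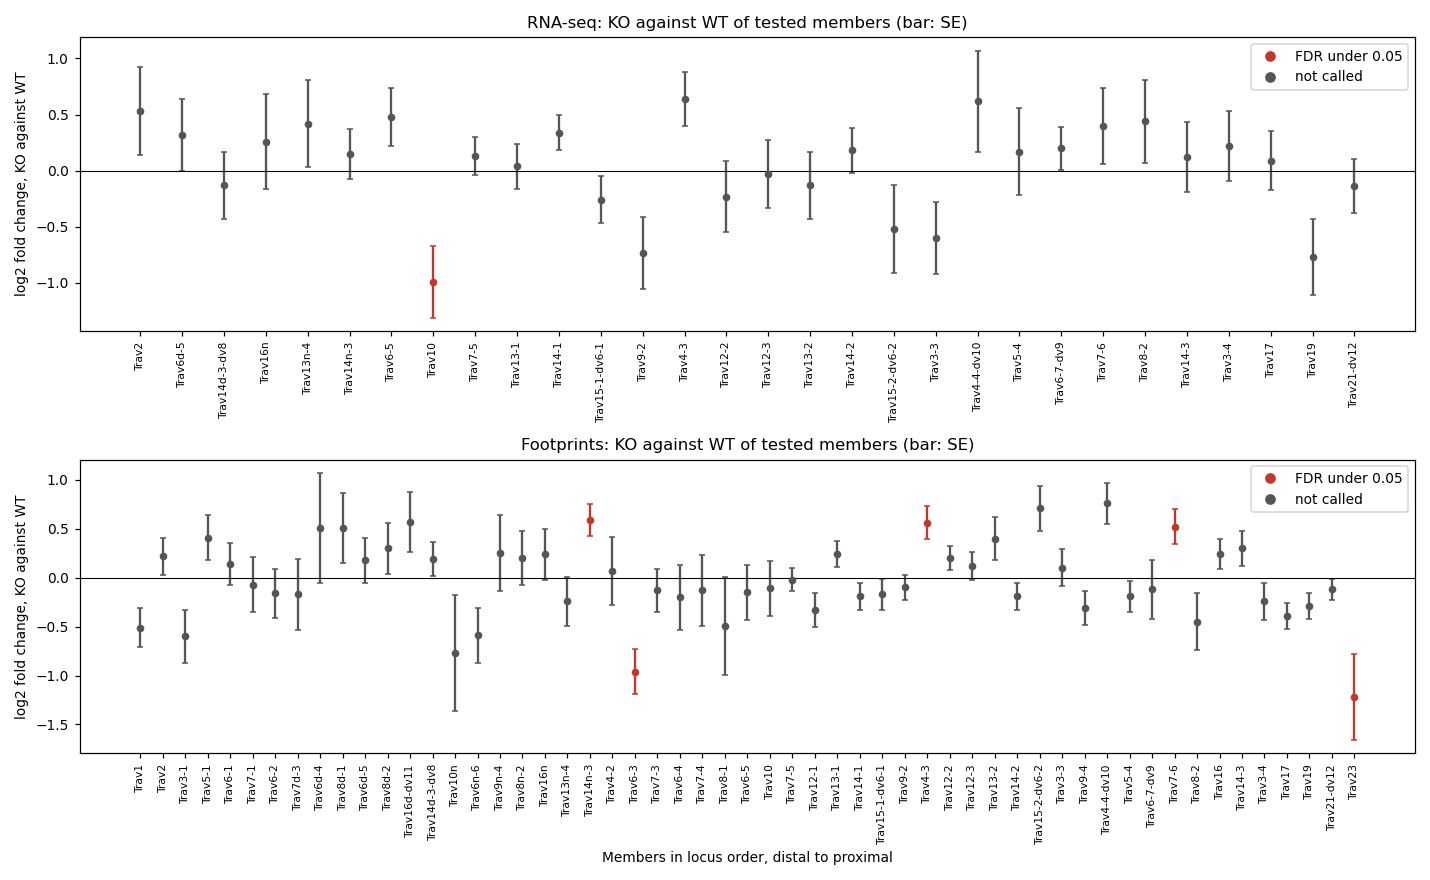
Log2 fold change of KO against WT for the 30 members tested in RNA-seq (above) and the 55 tested in footprints (below), in locus order, with SE bars; red points passed an edgeR FDR of 0.05. Trav10 is the red point in RNA-seq at -0.99, and the 5 red points in footprints lie between -1.22 and 0.59.

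Since copies can share reads, rows of 1 segment number were also summed into families before the fit. In RNA-seq 17 families were tested and 1 was called, the Trav10 family, with 3.34, 3.35 and 3.31 CPM in libraries labelled WT and 1.76, 1.66 and 2.00 CPM in those labelled KO. The groups did not overlap, and the log2 fold change was -0.86 (SE 0.30, edgeR FDR 0.0479, with the replicate block 0.453, DESeq2 adjusted p 0.437). In that fit 6.91% of all rows were called. In footprints 19 families were tested and 2 were called, against 17.6% of all rows. The Trav4 family had 8.13, 7.66 and 6.25 CPM in WT and 10.3, 11.3 and 14.2 CPM in KO, with a fold change of 0.63 on the log2 scale (SE 0.14, edgeR FDR 0.0282, DESeq2 adjusted p 0.0178, with the replicate block 0.133). No value overlapped, and the call held only without KO replicate 1 or without WT replicate 1 (edgeR FDR 0.0405 to 0.0903). The other was Trav23, which is a family of 1 row. The Trav4 family in RNA-seq had 5.56, 3.91 and 4.41 CPM against 7.03 ± 0.666 CPM in libraries labelled KO and did not pass the test (log2 fold change 0.60, SE 0.19, edgeR FDR 0.075). The largest family by reads, Trav14, overlapped in both assays, with edgeR FDRs of 0.269 and 0.622.

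By position, the proximal segments took a smaller share of member footprints in KO. Segments numbered 17 and above took 21.4%, 20.8% and 23.7% of member footprints in WT and 18.9%, 19.4% and 16% in KO, or 22.0 ± 1.53% against 18.1 ± 1.84% (SD, n = 3). All KO shares lay below all WT shares. The highest WT and the lowest KO share both came from replicate 3, and KO replicate 3 was the shallowest library. The summed level of these 6 members was 48.2 ± 2.51 CPM in WT and 40.1 ± 2.31 CPM in KO. Segments numbered 3 to 16 took 74.4%, 74.5% and 71.8% in WT and 76.6%, 76.7% and 80.1% in KO, which did not overlap either, but the shares add up to the whole, so that the middle share moves with the proximal one. The middle levels themselves were 169, 163 and 153 CPM in WT and 163, 168 and 190 CPM in KO and overlapped. The distal pair Trav1 and Trav2 took 4.47 ± 0.223% and 4.13 ± 0.32%. These shares are given without a test.

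In RNA-seq the proximal share was smaller and the genotypes overlapped. It was 7.90%, 8.94% and 9.71% in libraries labelled WT and 8.21%, 7.29% and 6.36% in those labelled KO. Segments numbered 3 to 16 took 89.3 ± 1.23% and 90.8 ± 1.31%, and the distal pair 1.83 ± 0.35% and 1.90 ± 0.461% (SD, n = 3). In both genotypes the proximal share was thus higher in footprints than in RNA-seq in every library, and so was the distal share. All d and n rows are numbered 3 to 16, and no distal or proximal segment has such a copy. Position and copy number therefore cannot be told apart in these shares. Whether the assays lost different parts of their reads to several alignments in the copied rows was not tested.

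**Figure D5:**
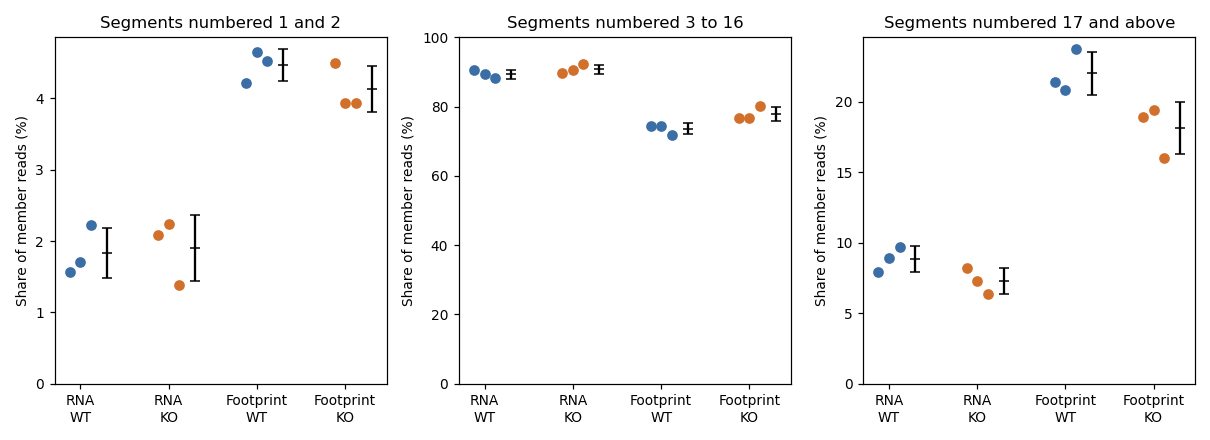
Share of member reads, in percent, taken by segments numbered 1 to 2, 3 to 16, and 17 and above in the 4 groups; points are libraries and black marks are the mean with SD. In footprints the 3 KO points for segments 17 and above (16% to 19.4%) lie below the 3 WT points (20.8% to 23.7%).

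The 6 proximal members behind that share were not alike in level. Besides Trav17, Trav21-dv12 and Trav23, Trav19 had 8.19, 6.71 and 7.87 CPM in WT and 5.57, 6.89 and 5.65 CPM in KO footprints, which overlapped (log2 fold change -0.29, SE 0.13, edgeR FDR 0.173). The footprint levels of Trav18 were 0.367 ± 0.172 and 0.286 ± 0.216 CPM, WT before KO (SD, n = 3), from 16 and 10 reads. Trav20 lay the other way, with 0.624 ± 0.0596 and 0.804 ± 0.168 CPM from 29 and 23 reads, and both were too low for the test. All 4 tested proximal members had negative log2 fold changes in footprints, from -1.22 to -0.12, and Trav23 alone passed. Trav22 had 0 reads in every library. At the distal end, Trav1 had 5.67, 5.26 and 4.07 CPM in WT and 3.06, 3.44 and 5.16 CPM in KO footprints, which overlapped (log2 fold change -0.51, SE 0.20, edgeR FDR 0.128). Trav2 had 3.89, 4.92 and 5.59 CPM against 6.49, 5.20 and 4.17 CPM and overlapped as well (log2 fold change 0.22, SE 0.19, edgeR FDR 0.469). Trav3-1, the next numbered member, had 2.02 ± 0.295 CPM against 1.48 ± 0.437 CPM (log2 fold change -0.60, SE 0.27, edgeR FDR 0.10).

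Whether footprints changed differently from RNA was tested as an interaction (translation). Here 30 members were tested and 0 were called. The edgeR interaction test gave 3 of them an unadjusted p under 0.05, against 14% of all genes, so 3 of 30 is not above that share. DESeq2, which gave some of them no adjusted p, called 0. Over all 11854 genes edgeR called 0.211% and DESeq2 0.472%. The 3 members, named after their values were seen, were Trav15-2-dv6-2 (log2 interaction 1.23, SE 0.44, edgeR FDR 0.174), Trav10 (0.88, SE 0.43, edgeR FDR 0.312) and Trav14-1 (-0.53, SE 0.23, edgeR FDR 0.315). Trav15-2-dv6-2 had 1.75, 1.81 and 1.65 CPM in RNA-seq labelled WT against 1.32, 0.947 and 1.25 CPM labelled KO, and 1.60, 2.18 and 2.56 CPM against 4.08, 3.12 and 2.45 CPM in footprints. Its genotypes did not overlap in RNA-seq and did in footprints.

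The segments of invariant receptors gave little to compare. Trav11 and Trav11d, of which Trav11 is the segment of the iNKT cell receptor, had 0 reads in all 12 libraries. Counting error alone, at 3 counts over the reads of a group, allows levels of up to 0.148 CPM in RNA-seq labelled WT. That limit is 0.153 in RNA-seq labelled KO, 0.0654 in WT footprints and 0.0987 in KO footprints. It covers only reads that were assigned to a row. Reads with several alignments were set apart, so 0 reads in these copies do not bound the level of either segment. The partner Trav11n had 62 reads, with 0.825 ± 0.232 and 0.798 ± 0.335 CPM in RNA-seq labelled WT and KO (SD, n = 3). Its footprints were 0.343, 0.280 and 0.379 CPM in WT and 0.464, 0.520 and 0.736 CPM in KO, from 15 and 16 reads, and it was not tested. Trav1 in RNA-seq had 1.11, 1.26 and 1.10 CPM against 0.878, 0.710 and 0.748 CPM, from 24 and 15 reads, which did not overlap and were not tested.

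Markers of iNKT cells were lower in KO. Of the 8 listed and tested in footprints, 5 were lower and 0 higher, and 2 of the 5 calls held with the replicate block. Among all genes 8.34% were called lower in footprints, and 3.02% were called with the block. In RNA-seq 3 of 4 tested were lower by label, against 3.43% of all genes. With the block 0 of those calls held, and 0.806% of all genes were called. Zbtb16, the transcription factor that directs innate-like T cells, fell in footprints by 1.55 on the log2 scale (SE 0.38, edgeR FDR 0.0366), a call that ended with the replicate block (0.144). Cxcr6, a chemokine receptor, fell by 1.73 (SE 0.18, edgeR FDR 0.000407, with the replicate block 0.0034). The 8 genes summed to 57.9 to 64.7 CPM in WT and 36.0 to 43.0 CPM in KO footprints, and to 45.7 to 59.2 and 21.8 to 29.6 CPM in RNA-seq. Of the 8 double-positive markers, 2 were higher and 1 lower in KO footprints, and 1 was higher in RNA-seq by label. The call that held with the block was that of Cd4, the coreceptor, in footprints (0.57, SE 0.06, edgeR FDR 0.00335, with the replicate block 0.0121). Of the other markers, B-cell genes summed to 292 to 365 and 345 to 439 CPM in footprints, with 1 of 5 higher, and gamma-delta T-cell genes to 155 to 198 and 144 to 185 CPM, with 1 of 6 higher. Myeloid genes summed to 183 to 217 and 182 to 220 CPM with 0 of 5 called, stromal genes to 93.6 to 112 and 85.4 to 112 CPM with 1 of 6 lower, and erythroid genes to 26.5 to 54.3 and 24.9 to 56.7 CPM with 1 of 3 lower. In RNA-seq by label 1 stromal and 1 erythroid marker were lower. Beside these lists, 9.25% of all genes were called higher and 8.34% lower in footprints, and 3.48% higher and 3.43% lower in RNA-seq. The part of these cells in the Trav values was not tested.

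Recombination genes, their regulators and the receptor constant genes were measured from a list of 30. In footprints 3 were higher and 1 lower in KO, and in RNA-seq 2 were higher and 1 lower by label, with medians of 0.04 in both, and none held with the replicate block. Over all genes 17.6% were called in footprints and 6.91% in RNA-seq. Rag1, a subunit of the recombinase, had 10300, 9570 and 10000 CPM in WT and 7820, 8390 and 8000 CPM in KO footprints. No value overlapped, and it fell by 0.30 on the log2 scale (SE 0.05, edgeR FDR 0.00866, with the replicate block 0.116). Its RNA-seq values gave -0.32 (SE 0.09, edgeR FDR 0.0993). Rag2, the other subunit, gave -0.02 (SE 0.06, edgeR FDR 0.847) in footprints.

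Those higher in footprints were Dclre1c, the nuclease that opens the hairpin ends (0.25, SE 0.04, edgeR FDR 0.00546, with the replicate block 0.189), Trbc1, a constant gene of the beta chain (0.34, SE 0.08, edgeR FDR 0.0289, with the replicate block 0.115), and Tcf12, a helix-loop-helix transcription factor (0.14, SE 0.03, edgeR FDR 0.0288, with the replicate block 0.446). In RNA-seq by label, Xrcc4, a partner of the ligase that seals the joint, was higher (0.38, SE 0.08, edgeR FDR 0.019, with the replicate block 0.435). Tcf7, a T-cell transcription factor, was lower (-0.26, SE 0.06, edgeR FDR 0.0477, with the replicate block 0.563). Trac, the constant gene of the alpha chain, had 717, 722 and 611 CPM in WT and 699, 692 and 808 CPM in KO footprints. These overlapped (log2 fold change 0.10, SE 0.09, edgeR FDR 0.496), as did the summed Trav members.

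The authors' deposited table lists 25 of the members for each assay, and none has an adjusted p under 0.05. In the authors' deposited table for footprints the lowest adjusted p among members is 0.0719, for Trav4-4-dv10 with a log2 fold change of 0.46. In the authors' deposited table for RNA-seq it is 0.411, for Trav10 with a log2 fold change of -0.35, and 4 members have no adjusted p. Both directions match the sign of the fits given above.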

How the data were processed

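RNA-seq and ribosome footprint libraries of thymocytes were analysed from 2 deposited tables of whole-number counts, which the authors name as adjusted without saying what was adjusted. Per the submitters' processing notes, FastQC, Bowtie2 2.5.1, STAR 2.7.10a, HTSeq 2.0.3 and DESeq2 1.40.2 were used, with no role or order given. For the genome build and the use of strand, the entry is: not given in the sources used here. Per the file headers, 5 further rows name no gene (no feature, ambiguous, several alignments and the like) and were left out of library sizes. Reads in genes were 27.0% to 28.5% of counted reads in RNA-seq and 72.3% to 73.1% in footprints. The authors' deposited comparison tables supplied their log2 fold changes and adjusted p-values, while 12 columns of per-library values in them were not used.

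Libraries were grouped by assay and genotype as labelled. Pairs within a group differed beyond sampling noise (chi-square over its degrees of freedom 3.41 to 12.9). Symbols were matched for 54587 IDs by version and 567 without it, and 181 had none. Locus order and pseudogene types came from RefSeq GRCm38.p6, without coordinates, and no segment sequence was used.

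Each assay was fitted alone over all genes with edgeR 4.0.16 in R 4.3.3 (TMM, filterByExpr with a minimum count of 10, quasi-likelihood test, Benjamini-Hochberg FDR under 0.05). Translation was the genotype by assay interaction over 12 libraries. CPM is the usual scaling of reads to the TMM-adjusted total, and the printed SE is the larger of the fold change over the square root of F and the Poisson counting error. The fits were tested on simulated data. DESeq2 1.42.0, RLE factors, no filter, a replicate block, other thresholds, a joint fit and leaving out each library were alternatives. Members named with values were the 6 with most reads per assay, called members, the 3 highest and 3 lowest called footprint to RNA ratios, the 3 lowest numbered, those numbered 17 and above, Trav1, Trav11 and Trav11d, and called genes of the recombination list. The values of 1 gene of that list are not reported here. The members and lists were chosen with earlier results of these data known.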

Additional observations from a re-analysis of the deposited data

How the results depend on the processing

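Counts of called members depended on the fit. In RNA-seq the 1 member called fell to 0 with DESeq2, with the replicate block and without each library in turn (0 to 0). The share of all genes called fell from 6.91% to 3.9%, 0.806% and 1.55% to 2.32% in the same fits. In footprints the 5 called members became 1 with DESeq2, 3 in a joint fit of 12 libraries and 8 at an FDR under 0.1. They became 0 with the replicate block, and 1 to 2 without 1 library. The share of all genes called went from 17.6% to 9.14%, 11.6%, 26.1%, 3.02% and 7.75% to 10.9%, in that order. The joint fit tested 46 members and the fits without 1 library 53 to 60, against 55. Family sums called in RNA-seq went from 1 to 0 with DESeq2, without the low-count filter, with the replicate block and without each library (0 to 0), and to 3 at an FDR under 0.1. The share of all rows called went from 6.91% to 3.9%, 3.5%, 0.814%, 1.55% to 2.38%, and 12.8%, in that order. Family sums called in footprints went from 2 to 1 with DESeq2, to 5 at an FDR under 0.1, to 0 with the replicate block, and to between 0 and 2 without 1 library. Here the share of all rows went from 17.6% to 9.17%, 26.1%, 2.89% and 7.84% to 11%. For translation 0 members were called under every setting, including a replicate block within each assay that was added after seeing the data. The share of all genes called ran from 0.0169% to 1.11% over these settings. Members called in footprints against RNA-seq were 21 of the 30 that passed the filter in each assay alone, a subset added after seeing the data. That is 70%, against 83.2% of all genes filtered in the same way. With the 14 members that passed through footprints alone, whose high ratio was bound to follow, 35 of 44 were called, against 85.3% of all genes. Without 1 library it was 32 to 38 of 42 to 50 members, against 82.2% to 83.9% of all genes. The ratio of Trav10 reversed to 0.22 in the KO libraries. The replicate numbers do not pair the samples by a shared mouse in the labels, and same-numbered libraries deviated in opposite directions. The cause was not tested.

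The share of segments numbered 17 and above was 11%, 10.3%, 25.4% and 22.2% in WT and KO RNA-seq and WT and KO footprints when segment 16 was included, and 10.8%, 9.42%, 39.3% and 33.5% over the 12 members with 10 reads in every library. Without 1 replicate it was 8.42% to 9.32%, 6.83% to 7.75%, 21.1% to 22.5% and 17.4% to 19.1%. The summed level over the 12 members was 65.9, 73.2, 98.1 and 97.4 CPM. Read numbers also limit the rows: 42 of 72 members could not be tested in RNA-seq and 17 in footprints.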
